A study of Mus musculus with 20 samples.

Results

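Alveolar macrophages from mice lacking the microRNA miR-155 were compared with those from wild-type mice in mice that breathed air rather than cigarette smoke. The groups compared were the 10 libraries of air-exposed mice among 20 in all. There were 5 from miR-155 knockout mice and 5 from wild-type mice, each from its own mouse. The spread between mice was estimated from all 20 libraries, smoke-exposed mice included. Differences are given throughout as knockout minus wild type, so that a positive value is a higher level in the knockout.

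The study exposed wild-type and knockout mice to air or cigarette smoke for 4 weeks and sequenced polyadenylated RNA from lung cells sorted as CD45+, Siglec-F+ and CD11c+. The wild-type mice carry the strain label C57BL/6, and the knockout mice the label B6.Cg-Mir155tm1.1Rsky/J, a line with a targeted germline allele of the miR-155 locus. Within the air comparison exposure and time were the same in both genotypes. The labels name no littermate controls and no substrain of the wild type, so the deleted locus and any other difference between the strains cannot be told apart. Ages and sexes are not given in the labels.

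miR-155 is cut from a non-coding host transcript, Mir155hg, whose level rises in macrophages, dendritic cells and lymphocytes when Toll-like receptors or cytokines activate them. Loaded into an Argonaute protein, the microRNA pairs through its seed with sites in 3' untranslated regions (UTRs) and lowers the stability and translation of those transcripts. Among its reported targets are brakes on inflammatory signalling such as Socs1 and Inpp5d, and transcription factors such as Bach1, Spi1 and Cebpb. Alveolar macrophages reside in the airspaces, where they clear surfactant lipid and inhaled particles.

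The mature microRNA and matching UTR sites are shown because a transcript relieved of miR-155 would be recognised by such a site. The RefSeq sequence of miR-155-5p, on the plus strand at chr16:84714143-84714165 (GRCm38.p6), has its seed, bases 2 to 8, in capitals.
miR-155-5p: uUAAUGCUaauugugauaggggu
Sites were searched on the sense strand of the UTR as AGCATTAA (8mer), AGCATTA (7mer-m8) and GCATTAA (7mer-A1), each gene being placed in the first of these classes it matched. Dab2, Bend4 and Ttbk2 were the genes with an 8mer among those that differed between the genotypes. Bach1, Inpp5d and Jarid2 are reported targets. Each is written 5' to 3' on the transcript's strand with the match in capitals.
Dab2, chr15:6439818-6439825: cggggcaaaaAGCATTAAatgtttca
Bend4, chr5:67396658-67396665: catccaggatAGCATTAAtgttgata
Ttbk2, chr2:120736361-120736368: tatctgattcAGCATTAAgatagaga
Bach1, chr16:87732188-87732195: tgaacagtttAGCATTAAgggttaat
Inpp5d, chr1:87719838-87719845: gtttttaaaaAGCATTAAagaaaacc
Jarid2, chr13:44920093-44920100: attttgttttAGCATTAAactgttca
The coordinates give the 8 matched bases in GRCm38. Bend4 and Ttbk2 lie on the minus strand and the other 4 on the plus strand.

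Values are log2 CPM, read counts scaled to a common library total, for 13225 genes, and library totals over these genes ranged from 6885680 to 11952088 reads in the air-exposed knockouts and from 8354910 to 9380656 in the air-exposed wild types. 3 knockout libraries stood apart: mice IIIb2, IIIb3 and IIIb4 had 1645, 1524 and 1451 genes with no read, against 259 to 1224 in the other 17 libraries. Over 8907 genes whose mean log2 CPM was 3 or more, pairs of wild-type air libraries correlated with Pearson's r of 0.975 to 0.984, and pairs of knockout air libraries with 0.947 to 0.973. Markers of alveolar macrophages were high in both genotypes, with 28 of 29 measured and a summed level of 41504 to 45499 CPM in wild type and 40688 to 46182 in knockout. Of 16 T and NK cell markers 3 were in the table, summing to at most 2.35 CPM in any air library, and of 8 B cell markers 1, at no more than 0.914 CPM. Summed markers of other types were higher: 594 to 755 CPM in wild type and 635 to 882 in knockout for monocytes and interstitial macrophages (14 of 20 measured), 182 to 247 and 193 to 279 for epithelium (8 of 15), 154 to 174 and 137 to 188 for dendritic cells (9 of 12), and 72.0 to 82.2 and 71.2 to 123 for eosinophils (2 of 8). Their part in the results was not tested. In a sorted bulk sample, fewer cells of a type and less RNA per cell cannot be told apart.

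The host transcript Mir155hg (chromosome 16) was near the limit of detection in resting alveolar macrophages of both genotypes. The wild-type mice had 0, 0, 0, 1 and 1 reads, and the knockout mice IIIa5 to IIIb4 had 0, 10, 0, 0 and 15. The groups overlapped, and the summed ratio of 12.4 (95% counting interval 3.10 to 108) rested on IIIb1 and IIIb4; the adjusted p was 0.727. Polyadenylated-RNA libraries do not hold the mature microRNA, and a gene table does not show which part of the host transcript the reads fall in, so these counts do not check the deletion.

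Across all 13225 genes, 55 differed between the genotypes in air at an adjusted p below 0.05 (0.416% of genes tested), of which 20 were higher in the knockout (0.151%) and 35 lower (0.265%). All p-values for single genes are two-sided values of limma's moderated test, adjusted by Benjamini-Hochberg over all genes, and "called" refers to this threshold. Called differences of at least 2-fold numbered 26 (0.197%), 11 higher and 15 lower. In 43 of the 55 the 5 knockout and 5 wild-type values did not overlap, whereas 242 of all genes (1.83%) showed no overlap. These calls used the spread over all 20 libraries. With the 10 air libraries fitted alone, 24 genes were called, 14 higher and 10 lower. Without IIIb2, IIIb3 and IIIb4, 24 genes were called and 20 of them were among the 55. Without IIIa5, 182 genes were called, 48 higher and 134 lower, and 54 of them were among the 55; without Ia4 the count was 29. When each of the 10 air libraries was left out in turn, 26 of the 55 genes stayed called every time, 16 of them on chromosome 5. The other 10 were Usp25, Nlrp3, Ptgir, Pira2, Arl5c, Gm4285 and 4 pseudogenes described below. The remaining 29 lost their call without at least 1 library, at adjusted p-values of up to 0.156.

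**Figure D1:**
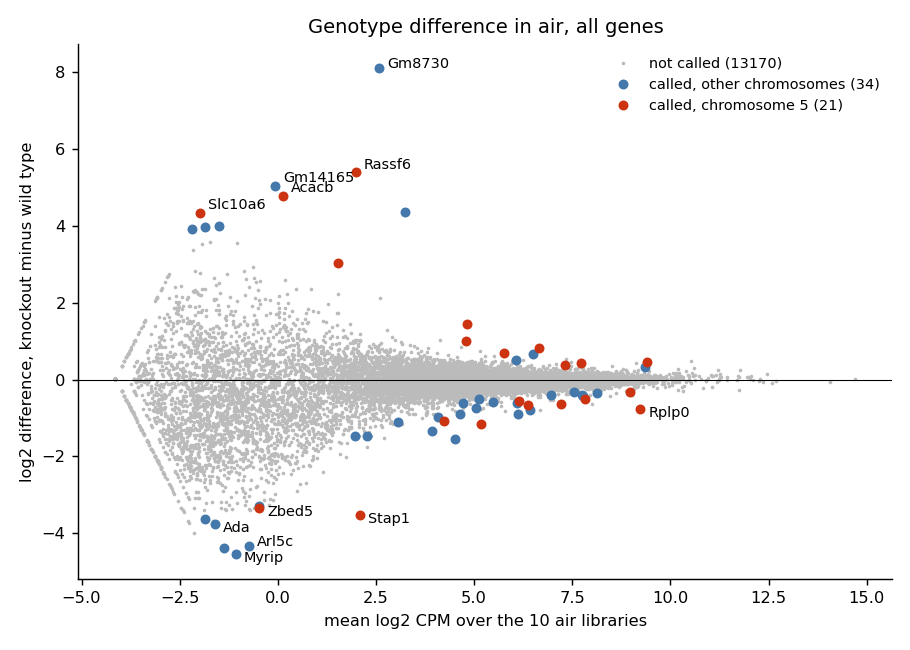
The mean log2 CPM over the 10 air libraries (x axis) against the log2 difference, knockout minus wild type (y axis), with 1 point for each of 13225 genes. The 55 called genes are split into 21 on chromosome 5 (red) and 34 elsewhere (blue). The highest point is Gm8730, at 8.11.

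The called genes were concentrated on chromosome 5, which held 21 of the 55 among its 864 tested genes (2.43%, 11 higher and 10 lower). Every other chromosome had between 0 and 4 called genes. The 21 genes lay between Rbpj and Zbed5, chr5:53466152-129903623, a stretch of 76.4 Mb with 422 tested genes. The 442 tested genes of chromosome 5 outside it included no call in air at this threshold. Since the stretch was bounded by the called genes themselves, its share of 4.98% is a description. In smoke-exposed mice, 31 of the 422 genes inside the stretch and 9 of the 442 outside it were called, against 1.58% of all genes. The smoke group means come from other mice, but both tests use the same estimate of each gene's spread. Near the miR-155 locus on chromosome 16, 56 tested genes started within 10 Mb. In air 1 of the 56, Usp25, was called, against 0.416% of all genes. In smoke 3 of the 56 were called, against 1.58% of all genes.

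**Figure D2:**
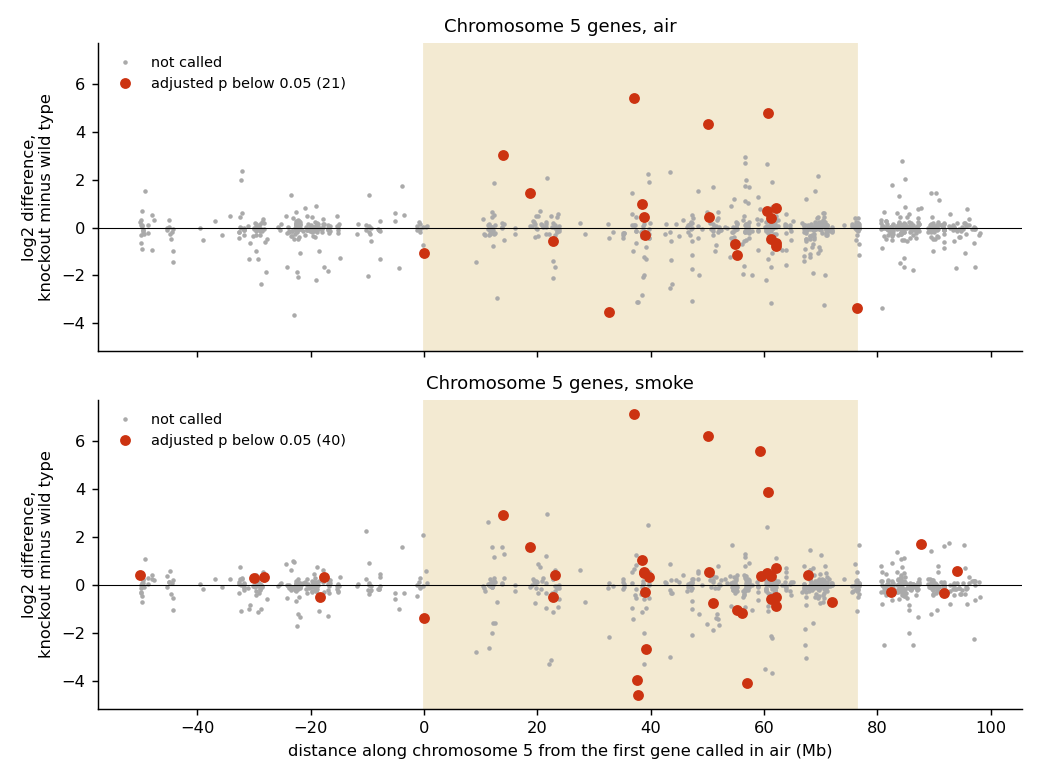
The log2 difference, knockout minus wild type, of each tested gene of chromosome 5 by its distance in Mb from the start of Rbpj, in air (top) and in smoke (bottom). Red points passed an adjusted p of 0.05, 21 in air and 40 in smoke, and the shaded stretch of 76.4 Mb holds all 21 air calls.

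Among the chromosome 5 genes that were higher in the knockout, Rassf6, which encodes a Ras-association domain protein of the Hippo and apoptosis pathways, went from near silence to a moderate level. The wild-type mice Ia3, Ia4, Ib1, Ib2 and Ib4 had 4, 6, 5, 6 and 4 reads, and the knockout mice IIIa5, IIIb1, IIIb2, IIIb3 and IIIb4 had 310, 209, 186, 171 and 273. All 5 knockout values were above all wild-type values, and the mean rose from 0.564 ± 0.116 to 25.99 ± 4.89 CPM (SD, n = 5 each). The log2 difference was 5.39 ± 0.49 (SE; adjusted p = 2.65e-08). Acacb, the mitochondrial acetyl-CoA carboxylase whose product malonyl-CoA restrains fatty acid oxidation, had 6, 2, 0, 0 and 5 wild-type reads and 72, 55, 66, 33 and 37 knockout reads. Its groups did not overlap either, with a log2 difference of 4.79 ± 0.78 (adjusted p = 0.000972). Slc10a6, a sodium-dependent transporter of sulphated steroids, had no read in any wild-type air library. Its knockout reads were 35, 30, 0, 8 and 20, so that it was at least 30.8-fold higher when the wild-type group is set at 3 reads in all (adjusted p = 0.0323). IIIb2 was the knockout library without a read. Slc10a6 stayed called in 3 of the 10 omissions of a single air library, with an adjusted p of up to 0.0839 (without IIIb4).

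Bend4, a BEN-domain protein with the 8mer shown above, had log2 CPM values of -0.43, -0.36, 1.26, -0.14 and -0.25 in wild type and 4.25, 2.32, 2.22, 3.67 and 2.81 in knockout. The lowest knockout value exceeded the highest wild-type value, and the difference was 3.04 ± 0.43 (adjusted p = 0.000155). Atp10d, a lipid flippase of the P4-ATPase family, is annotated as a polymorphic pseudogene, a class in which the reference strain's reading frame is interrupted. It was 1.45 ± 0.16 higher on the log2 scale (adjusted p = 1.61e-06), from 17.5 ± 3.73 to 47.4 ± 6.65 CPM. The kinase gene Cdkl2 rose by 0.996 ± 0.17 (adjusted p = 0.00136). Gcn1l1, whose protein GCN1 binds stalled ribosomes and activates the kinase GCN2, had wild-type values of 6.36, 6.09, 6.27, 6.29 and 6.21 and knockout values of 7.17, 7.07, 6.99, 7.02 and 7.04. These groups were separated by more than their whole spread, and the difference was 0.81 ± 0.08 (adjusted p = 3.36e-07). Smaller increases were found for Ssh1, a phosphatase that activates cofilin (0.69), Naaa, the lysosomal amidase of N-acylethanolamines (0.46), Aff1, a scaffold of the super elongation complex (0.44), and Git2, a GTPase-activating protein for ADP-ribosylation factors (0.38). All 4 had groups that did not overlap.

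Of the 10 chromosome 5 genes that were lower in the knockout, 3 act in lysosomes or in handling glycolipids. Idua, which encodes the lysosomal enzyme that removes iduronic acid from glycosaminoglycans, had log2 CPM values of 5.79, 5.74, 5.81, 5.64 and 5.81 in wild type and 4.53, 4.58, 5.12, 4.02 and 4.76 in knockout. The groups did not overlap, and the mean fell from 54.2 ± 2.68 to 25.0 ± 6.73 CPM, a log2 difference of -1.16 ± 0.15 (adjusted p = 3.52e-05). Gltp, a cytosolic glycolipid transfer protein, fell by 0.50 with an SE of 0.07 (adjusted p = 0.0001). Scarb2, the receptor that carries glucocerebrosidase to the lysosome, fell by 0.32 (adjusted p = 0.0323), with overlapping groups. The 3 are grouped here after their values were seen. Idua overlaps Dgkq and Slc26a1 on the other strand, as Adcy3, below, overlaps Cenpo, and with no stated strand setting their reads cannot be told apart.

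Rbpj, the DNA-binding protein through which Notch receptors activate transcription, had wild-type values of 4.72, 5.01, 4.81, 4.80 and 4.49 and knockout values of 3.38, 3.92, 3.91, 3.87 and 3.39. The groups did not overlap, and the difference was -1.07 ± 0.20 (adjusted p = 0.00537). Stap1, an adaptor protein downstream of tyrosine kinases, had 152, 163, 71, 133 and 146 reads in wild type and 40, 20, 11, 0 and 32 in knockout. It fell by 3.53 on the log2 scale (SE 0.66, adjusted p = 0.00537), and by 2.48 without the 3 knockout libraries that stood apart (adjusted p = 0.00335). The library without a Stap1 read was IIIb3. Pxn, the focal adhesion scaffold paxillin (-0.63), Dr1, a repressor of TATA-binding protein (-0.67), and Tmem165, a Golgi membrane protein needed for glycosylation (-0.55), were lower with no overlap between groups. Zbed5 was called (-3.35, adjusted p = 0.0459) with 14, 15, 38, 33 and 12 wild-type reads and 9, 25, 0, 0 and 0 knockout reads. Its 3 knockout libraries at 0 were IIIb2, IIIb3 and IIIb4, and without them its difference was -0.72 (adjusted p = 0.885).

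**Figure D3:**
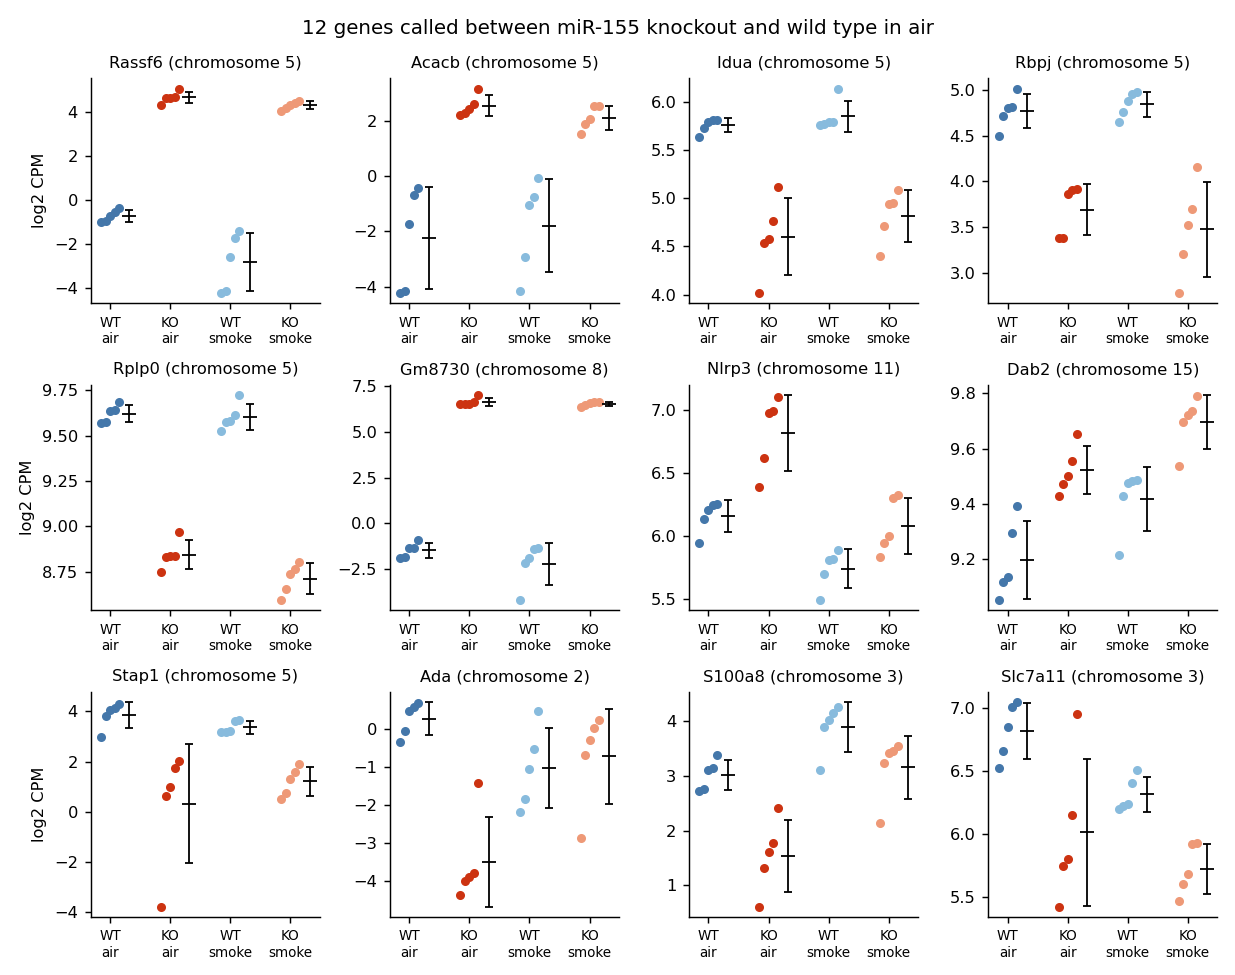
The log2 CPM (y axis) of 12 genes called in air, with 1 point per mouse in each of the 4 groups of 5 mice, sorted within a group, and black bars for the mean ± SD. In Rassf6, Acacb, Idua, Rbpj, Rplp0 and Gm8730 the knockout groups lie apart from the wild types in both air and smoke, whereas for Ada they lie apart in air and overlap in smoke.

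Rplp0, which encodes the P0 protein of the ribosomal stalk and is used widely as a reference gene in quantitative PCR, was lower in every knockout mouse. Its level was 798, 759, 764, 795 and 823 CPM in the wild-type mice and 457, 430, 456, 502 and 454 CPM in the knockout mice. The groups did not overlap, with a log2 difference of -0.78 ± 0.06 (adjusted p = 2.35e-10). It was the only called member of the 93 ribosomal protein genes, whose median difference was 0.01 against -0.04 over all genes.

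The 4 processed pseudogenes of Rplp0 that were called moved the other way. Gm8730 (chromosome 8) had 2, 4, 3, 2 and 3 reads in wild type and 1185, 953, 684, 876 and 743 in knockout, a log2 difference of 8.11 ± 0.40 (adjusted p = 2.15e-14). Gm9625 (chromosome 13) rose from 2.07 ± 0.482 to 42.7 ± 4.85 CPM, and Gm14165 (chromosome 2) from 14 summed reads to 249. Rplp0-ps1 (chromosome 3) had 2 wild-type and 66 knockout reads, or 32.8 times the CPM (95% counting interval 8.74 to 277). None of the 4 had overlapping groups. In the reference transcripts they match Rplp0 with identities of 98.7% (Gm8730), 97.4% (Gm9625), 97.2% (Gm14165) and 94.1% (Rplp0-ps1) over 948 to 955 aligned bases, so how reads were divided between gene and copies is uncertain. The sum of Rplp0 and the 4 copies was 790 ± 26.5 CPM in wild type and 611 ± 44.2 in knockout, a ratio of 0.772, where Rplp0 alone gave 0.584. The sums did not overlap, at 761 to 826 CPM in wild type and 568 to 685 in knockout. They were formed after the values were seen, so no p-value is given for them.

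Rbpj was also lower while a processed copy of it was higher, with a gain in CPM far smaller than that of the Rplp0 copies. In the knockout the copy of Rbpj had a mean of 1.51 CPM and those of Rplp0 together 151. Its processed copy on chromosome 6, Rbpj-ps3, matches 1441 bases of Rbpj with an identity of 99.7%, and had 0, 0, 0, 1 and 0 reads in wild type and 15, 24, 6, 21 and 1 in knockout. The ratio of summed CPM was 66.7 (95% counting interval 11.6 to 2672). Rbpj and its copy together gave 27.4 ± 3.51 CPM in wild type and 14.6 ± 3.29 in knockout, against 27.3 and 13.1 for Rbpj alone. The ratios were 0.533 with the copy and 0.478 without it. The copies carry predicted or pseudogene names and are described here because of their values. Pira2, an activating immunoglobulin-like receptor on chromosome 7 (-1.33, adjusted p = 0.000972), also has a near copy, Gm15922, at 99.5% identity, and its count is uncertain for the same reason.

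Outside chromosome 5, Nlrp3 and Dab2 were higher and Fcgr2b lower in the knockout. Nlrp3, the sensor of the inflammasome that activates caspase-1, had log2 CPM values of 6.25, 5.94, 6.21, 6.14 and 6.26 in wild type and 6.39, 7.11, 6.9975, 6.98 and 6.62 in knockout. Every knockout mouse exceeded every wild-type mouse, and Nlrp3 rose from 71.6 ± 6.16 to 115 ± 22.6 CPM, a difference of 0.66 ± 0.12 (adjusted p = 0.00448). Without IIIb2, IIIb3 and IIIb4 the difference was 0.59 (adjusted p = 0.203). Dab2, a clathrin adaptor that carries an 8mer, had wild-type values of 9.13, 9.11, 9.30, 9.05 and 9.39 and knockout values of 9.55, 9.47, 9.43, 9.65 and 9.4997. Its groups were separate but close, with a difference of 0.32 ± 0.07 (adjusted p = 0.0277). Fcgr2b, the inhibitory Fc receptor for IgG, was lower by 0.43 with an SE of 0.10 (adjusted p = 0.0439), with wild-type values of 7.86 to 8.27 and knockout values of 7.46 to 7.64. Dab2 stayed called in 5 and Fcgr2b in 1 of the 10 omissions, with adjusted p-values of up to 0.108 (without Ib2) and 0.133 (without Ib4).

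S100a8, an antimicrobial calcium-binding protein abundant in neutrophils, had 77, 55, 77, 63 and 92 reads in wild type and 63, 25, 25, 10 and 24 in knockout. As log2 CPM its groups did not overlap, and it fell by 1.48 (SE 0.33, adjusted p = 0.0347). Of 14 neutrophil markers 7 were in the table, and their summed level was 94.9 to 130 CPM in wild type and 87.2 to 136 in knockout, with S100a8 as the only called member. It stayed called in 2 of the 10 omissions, with an adjusted p of up to 0.0936 (without Ib4). Il20rb, a receptor subunit for cytokines of the IL-20 family (-1.47, adjusted p = 0.0485), was lower without overlap. So was Ptgir, the prostacyclin receptor (-0.57, adjusted p = 0.00537), which signals through cyclic AMP. Adcy3, an adenylyl cyclase that makes cyclic AMP, was lower by 0.36 (adjusted p = 0.0419). Rgs1, a regulator that shortens G-protein signals, ranged from 4.52 to 6.08 in wild type and from 2.91 to 5.49 in knockout, with overlap (-1.55, adjusted p = 0.0407). Ptgir, Adcy3, Rgs1 and the other genes outside the selection rule are named with their values known.

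Several genes of metabolism, membranes and nutrient sensing were lower in 4 of the knockout mice and near the wild-type level in the fifth, IIIa5. Slc7a11, the cystine importer that feeds glutathione synthesis, had wild-type values of 6.66, 6.85, 6.53, 7.01 and 7.05, and knockout values of 6.95 in IIIa5 and 5.42, 6.15, 5.74 and 5.80 in the others. The groups overlapped through IIIa5, and the difference was -0.81 ± 0.17 (adjusted p = 0.0256). Rragd, a Rag GTPase that brings mTORC1 to the lysosome, had 16, 29, 23, 23 and 11 wild-type reads, 33 reads in IIIa5, and 1, 0, 2 and 0 in the other knockouts (adjusted p = 0.0323). Arl5c, a small GTPase gene, had 39, 27, 23, 30 and 10 wild-type reads, 34 in IIIa5 and none in the other 4 knockouts (adjusted p = 0.00448). Of the 25 genes called lower outside chromosome 5, IIIa5 was the highest knockout library for 15 (60.0%), against 15.3% of all genes. None of the 10 genes called lower on chromosome 5 had IIIa5 as the highest knockout library. The summed level of immediate early and heat shock genes was also highest in IIIa5, at 5472 CPM, against 2438 to 3596 in the other knockouts and 2491 to 4296 in wild type. So was that of the monocyte and interstitial macrophage markers, at 882 CPM against 635 to 733 in the other knockouts and 594 to 755 in wild type. IIIa5 also had the most reads of the knockout air libraries, 11952088, and the fewest genes with no read, 392. The other knockouts had 950 to 1645 such genes, and the wild types 502 to 987. IIIa5 is also the only knockout air mouse with the letter a in its code, whose meaning the labels do not give. With that letter as a covariate 39 genes were called. The part of these in the results was not tested.

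A further group of called genes had few reads, and their fitted differences depend on the 0.5 reads added to each count. Ada, adenosine deaminase, had 8, 12, 14, 7 and 12 reads in wild type, 4 in IIIa5 and none in the other knockouts (adjusted p = 0.0236, and 0.0785 without Ia4). Myrip, a linker of Rab27 vesicles to myosin, had 31, 19, 25, 27 and 8 wild-type reads, 7 in IIIb2 and none in the other knockouts (adjusted p = 0.0233). Gm4285 had 82 wild-type and 3 knockout reads, 27.5-fold lower in CPM (95% counting interval 9.08 to 136). Mustn1 had 42 and 2, 21.1-fold lower (5.49 to 180). In the other direction Prss27, a serine protease, had no wild-type read and 4, 2, 18, 13 and 8 knockout reads, which is at least 14.9-fold higher by the same floor of 3 reads for the wild-type group. For Prss27 the 3 knockout libraries with the most reads were those with the most undetected genes, and without them it was not called (adjusted p = 0.734).

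The remaining called genes outside chromosome 5 had differences below 1.2 on the log2 scale in size. They included Dysf, a membrane-repair protein (-0.89), Arrdc3, an arrestin-domain adaptor (-0.89), Chpt1, the last enzyme of a route to phosphatidylcholine (-0.73), and Usp25, a deubiquitinase (-0.40). Ttbk2, a kinase of tau and tubulin with an 8mer, was lower by 0.97 (adjusted p = 0.0414), and Cdyl, a chromodomain corepressor, by 0.61 (adjusted p = 0.0414). Ttbk2 overlaps the gene Cdan1 on the same strand, so its reads cannot be assigned with certainty. Slc52a3, a riboflavin transporter, was higher by 0.50 (adjusted p = 0.0439). The others called lower were Fmnl3, Bcap29, Ccdc88a, Selenof and D930048N14Rik, by 0.32 to 1.12.

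The smoke-exposed mice gave the same genotype contrast in other animals, where 209 genes were called (1.58%), 118 higher and 91 lower. The smoke tests share each gene's estimate of spread with the air tests, so the 2 sets of calls are not independent. 25 genes were called in both exposures, all with the same sign, 16 higher and 9 lower. They make up 45.5% of the air calls and 11.96% of the smoke calls. 18 of the 25 lie on chromosome 5 and 7 elsewhere. The 7 were Gm8730, Gm9625, Gm14165, Rplp0-ps1, Dab2, Fcgr2b and Usp25. With each exposure fitted alone, 20 genes were called in both with the same sign. Rassf6 differed by 5.39 ± 0.49 in air and 7.13 ± 0.49 in smoke, Rplp0 by -0.78 ± 0.06 and -0.89 ± 0.06, Idua by -1.16 ± 0.15 and -1.04 ± 0.15, and Usp25 by -0.40 ± 0.08 in both.

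The other 30 air calls did not pass the threshold in smoke, and 45 of the 55 had the same sign in both exposures. Ada differed by -3.77 ± 0.80 in air and 0.32 ± 0.80 in smoke, Pira2 by -1.33 ± 0.21 and -0.27 ± 0.21, and Nlrp3 by 0.66 ± 0.12 and 0.34 ± 0.12. The difference between the 2 genotype effects was itself tested for every gene, and limma called none at an adjusted p of 0.05 (smallest 0.0513), with 1302 genes at an unadjusted p below 0.05. 22 of the 55 were among those 1302. The 55 were selected by the air difference, which is also a term of this contrast, so a larger share of them than of all genes is built in. The alternative fits called between 0 and 4 such genes, with 19 when IIIa5 was left out and 10 when IIIb1 was. Gm4285 came nearest, with an interaction of -5.13 ± 0.97 (adjusted p = 0.0513), followed by Ttbk2 at -1.54 ± 0.31 and Prss27 at 6.21 ± 1.28 (adjusted p = 0.0761 for each).

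**Figure D4:**
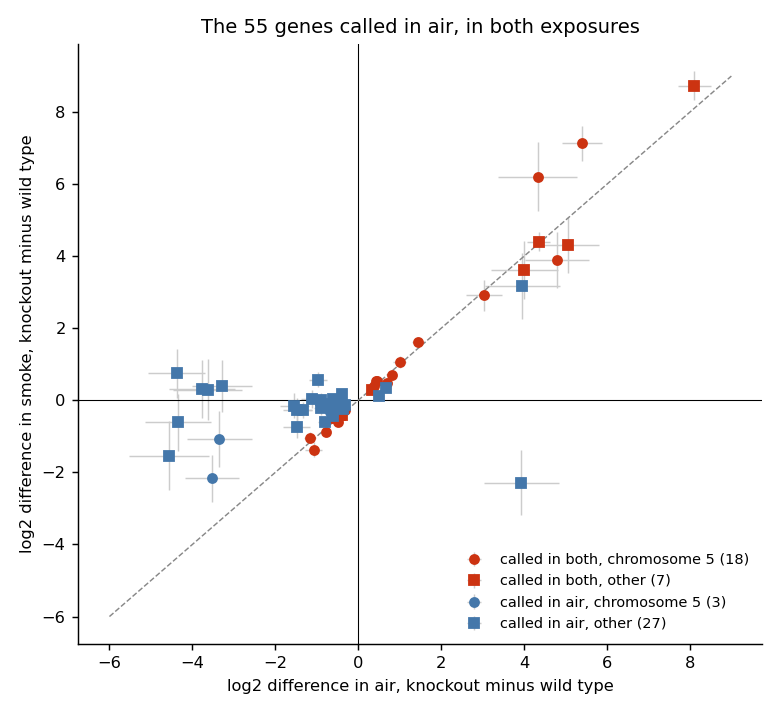
The log2 difference of each of the 55 air-called genes in air (x axis) and in smoke (y axis), knockout minus wild type, with standard errors as grey bars and the line of equal differences dashed. The 25 red symbols were called in both exposures, 18 of them on chromosome 5 (circles), and the 30 blue symbols in air alone.

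In air, the median difference of genes with a miR-155 seed match was not above that of genes without. Among 11443 genes with an annotated 3' UTR, 377 had an 8mer, 661 a 7mer-m8 and 525 a 7mer-A1 as their best match, or 3.29%, 5.78% and 4.59%. The median log2 difference was -0.05 for 8mer genes (quartiles -0.20 and 0.06), -0.06 for 7mer-m8 genes and -0.07 for 7mer-A1 genes, against -0.02 for the 9880 genes with no match and -0.03 for all UTR genes. Genes with a match had longer UTRs, with a median of 2659 bases for 8mer genes against 1001 without a match. With a transcript-length trend removed from each library, the medians were -0.02, -0.03, -0.04 and 0.0001 in the same order. 3 of the 377 8mer genes were called (0.796%), Dab2 and Bend4 higher and Ttbk2 lower, against 0.428% of all UTR genes and 0.425% of those with no match. 2 genes were called in each 7mer class, Bcap29, Cdyl, Selenof and Stap1, all lower, or 0.303% of 7mer-m8 and 0.381% of 7mer-A1 genes, near the background. In smoke the calls were 10 higher and 2 lower for 8mer genes, 10 and 0 for 7mer-m8, 7 and 1 for 7mer-A1, and 86 and 87 for genes with no match, out of 113 and 90 for all UTR genes. The smoke medians of the match classes, 0.02, 0.01 and 0.03 in that order, lay above the -0.03 of genes with no match. The smoke median was -0.02 for all UTR genes.

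None of 38 reported miR-155 targets was called. With 0.416% of all genes called, an absence of calls in a list this short is near the background. The median difference of the targets was -0.07 against -0.04 for all genes. At an unadjusted p below 0.05, 2 of the 38 were higher and 5 lower, compared with 500 higher and 1037 lower among all 13225 genes. The 2 higher were Inpp5d, the lipid phosphatase SHIP1 that opposes PI3-kinase, and Cux1, a homeobox transcription factor. Inpp5d was 7.95 ± 0.15 in wild type and 8.12 ± 0.10 in knockout (log2 CPM, SD, n = 5 each), a difference of 0.17 ± 0.07 (SE; adjusted p = 0.358), and Cux1 differed by 0.16 ± 0.07 (adjusted p = 0.379). Both carry an 8mer. The lower ones included Trp53inp1, a p53-induced autophagy protein (-0.64 ± 0.19, adjusted p = 0.127), and Maf, a macrophage transcription factor with few reads (-2.48 ± 0.86, adjusted p = 0.23). These genes are named with their values known.

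Other targets with 8mers differed little. Bach1, the haem-regulated repressor of antioxidant genes, had a difference of -0.17 ± 0.09, Jarid2, a Polycomb partner with 2 such sites, 0.07 ± 0.16, and Tab2, an adaptor of the kinase TAK1, -0.10 ± 0.09. The myeloid transcription factors Spi1 and Cebpb differed by 0.0034 ± 0.07 and -0.04 ± 0.10. Socs1, the inhibitor of JAK kinases, ranged from -4.23 to 0.60 in wild type and so was measured too imprecisely to compare (-0.80, SE 1.22). An adjusted p above the threshold does not show that these levels were equal.

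**Figure D5:**
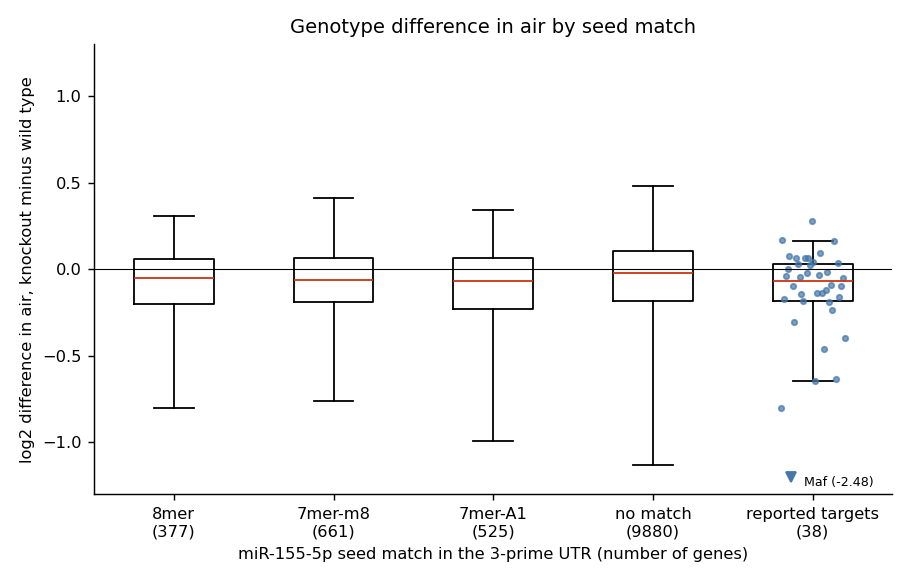
The log2 difference in air, knockout minus wild type (y axis), by class of miR-155-5p match in the 3' UTR and for 38 reported targets (points). Boxes give the quartiles and median (red), and whiskers the 5th and 95th percentiles; Maf, at -2.48, is drawn as a triangle at the lower edge. The medians of all 5 boxes lie between -0.07 and -0.02.

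The lists of wider macrophage programmes are short, and with 0.416% of all genes called an absence of calls in them is near the background. In the list of alveolar macrophage identity genes, 0 of 28 were called, with a median difference of 0.03. The surface markers used for sorting differed by -0.09 ± 0.13 (Siglecf) and -0.03 ± 0.06 (Itgax). Fabp4, a fatty acid carrier, was the identity gene nearest to the threshold (-0.52 ± 0.13, adjusted p = 0.0736) and was called lower without IIIa5 (adjusted p = 0.0205). Pparg, the transcription factor that directs alveolar macrophage identity, was called higher without that library (adjusted p = 0.0264; 0.30 ± 0.12 and 0.307 with it). No member was called among 22 NF-kB subunits and inhibitors, 22 Toll-like receptors and adaptors, 27 cytokines and chemokines, 28 interferon-stimulated genes, 19 genes of MHC class II presentation, 17 microRNA processing genes or 32 cell cycle genes. The same held for 27 lysosomal genes of the list, which does not hold Idua, Naaa or Scarb2. Without IIIa5, when 1.38% of all genes were called, Ikbkg of the NF-kB list, Ccl22 of the cytokines and Lipa of the lysosomal genes were called lower (adjusted p = 0.0302, 0.0455 and 0.0481). No omission of another single library is shown for these lists, and that of IIIa5 was chosen with its values known.

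Lists of lipid and redox genes had medians below that of all genes, with few or no called members. They were not alone in this. The median was -0.40 for interferon-stimulated genes (-0.07 without IIIb2, IIIb3 and IIIb4) and -0.11 for the integrated stress response. It was -0.08 for glycolysis and hypoxia and -0.06 for autophagy. Other lists lay above all genes, such as Toll-like receptors and adaptors (0.07) and MHC class II presentation (0.07). 0 of 29 lipid-handling genes were called, with a median of -0.10 and with 3 higher and 10 lower at an unadjusted p below 0.05. 0 of 23 cholesterol synthesis genes were called, with a median of -0.15 and 0 higher against 6 lower. Of 27 antioxidant targets of the transcription factor NRF2, Slc7a11 alone was called, with a median of -0.11 and 0 higher against 10 lower at an unadjusted p below 0.05. Among all genes 1537 of 13225 had an unadjusted p below 0.05, with a median difference of -0.04. The omission of IIIa5 was chosen with its values known. That library stood near the wild-type level for Slc7a11 among others, so more lower calls without it are partly built in. When IIIa5 was left out, calls rose over all genes from 0.416% to 1.38%, with 48 higher and 134 lower. Then 4 NRF2 targets were called lower (Slc7a11, Hmox1, Txnrd1 and Sod2) and 0 higher. Among lipid-handling genes Fabp4, Acaca and Lipa were called lower and Pparg higher, and 2 cholesterol synthesis genes, Sqle and Dhcr7, were called lower.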

How the data were processed

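The submitters' processing notes name STAR 2.6.0c, limma and the build GRCm38.p6; the sources used here give no read filter, annotation or strand setting. The authors deposited log2 CPM values per gene and library. The values equal log2 of (reads + 0.5) over (library total + 1), scaled to CPM, so whole reads were recovered within 0.001. RNA input was 25 ng per library, per the labels' protocols.

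The log2 values were fitted with limma 3.58.1 in R 4.3.3, with a mean for each of 4 groups over 20 libraries and a mean trend of the variance, and adjusted by Benjamini-Hochberg; the script was tested on simulated data. Of 13225 genes, 13140 matched GENCODE M21 (GRCm38), which gave positions and UTRs. Copies were found with blastn 2.17.0. Genes were named by a rule: per direction up to 12 called genes with the largest differences, no overlap and a mean log2 CPM of at least 1, then up to 8 also called in smoke, then up to 3 called per list, excluding predicted names; Mir155hg always. Other genes are named with their values known. The genes and 34 lists were chosen with earlier results of these data known. Alternatives covered filters, scaling, weights, prior, pseudocount, covariates and omitted libraries. Counting intervals and floors (3 reads) cover counting error only. No column of another series was present. The p-values measure the spread between mice.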

Additional observations from a re-analysis of the deposited data

Results flagged for a closer look

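Among 92 combinations of a measure and an air group, the sample at one end lay far from the other 4 in 8. Chance gives about 1 in 20 for independent, normally distributed values. These measures include genes chosen by their values and marker sums with almost no reads, so that rate is only a rough guide. In the wild-type group, mouse Ib1 had a log2 CPM of 1.26 for Bend4 (the others -0.43 to -0.14) and of 6.93 for Usp25 (the others 7.21 to 7.24). The summed endothelial and stromal markers were 6.44 CPM in the same mouse (the others 2.56 to 3.59). Mouse Ib4 had a log2 CPM of 8.27 for Fcgr2b (the others 7.86 to 7.96), and its 50 most abundant genes held 18.1% of reads (the others 17.6% to 17.7%). In the knockout group, IIIa5 had a log2 CPM of 9.46 for Naaa (the others 9.64 to 9.69), and IIIb3 had -3.78 for Stap1, at no read (the others 0.63 to 2.01). IIIb1 held the only B cell marker signal of its group, 0.291 CPM.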

How the results depend on the processing

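All 29 called genes named by the rule kept their sign under every alternative in which they were fitted; 11 stayed called in all of them, Rplp0, Rassf6, Gcn1l1, Atp10d, Idua, Naaa, Gltp, Bend4, Cdkl2, Tmem165 and Ssh1. With the compared groups fitted alone, 24 genes were called (10 lower, 11 at least 2-fold) and 334 in smoke. Without IIIb2, IIIb3 and IIIb4 the counts were 24 called, 10 lower, 14 at least 2-fold and 356 in smoke. Genes called lower numbered 21 with array weights and 22 with no mean trend or with the mouse code letter as covariate. Removing the transcript-length trend called 36 higher and 39 lower, and 134 in smoke; quantile normalization gave 28 and 35, and median centring 29 and 35, against 20 and 35. At least 2-fold calls fell to 17 and 10 with a minimum mean log2 CPM of 1 and 3. Smoke calls were 954 with array weights and 105 with no mean trend. Interaction calls were 1 with array weights, 2 with centring, a robust prior or the minimum of 1, 3 with quantile normalization or no mean trend, and 4 with CPM plus 1 or the minimum of 3. Leaving out each air library in turn gave 29 to 182 called genes, 14 to 48 higher, 15 to 134 lower, 15 to 78 at least 2-fold, 20 to 38 called in both exposures, 193 to 251 in smoke and 0 to 19 interactions. The causes were not tested. No paired analysis was possible because each mouse code occurs in a single group and replicate numbers were given in accession order. Depth limits genes with few reads: 95 genes had no read in any wild-type air library and 166 in any knockout air library.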
